A study of Mus musculus with 16 samples.

Results

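The subject is the phase I and II drug-metabolising enzyme families of mouse liver, read as 58 genes: every cytochrome P450 (Cyp), UDP-glucuronosyltransferase (Ugt), sulfotransferase (Sult), carboxylesterase (Ces), flavin monooxygenase (Fmo), aldehyde dehydrogenase (Aldh) and alcohol dehydrogenase (Adh) gene that a probe could be named for. Probes were named by the gene number inside their identifier, and the family prefix of the symbol chose the members. The prefix uses no measured value, but the members were chosen with earlier results of these data known. Of the 61 genes that matched, 3 (Cyp51, Cyp2b13 and Cyp4a10) were left out by the rule, which leaves 58 of 7409 named genes on an array of 24048 probes. A gene with several named probes was read by its brightest one.

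Lactb transgenic male mice (7 animals) were compared with male FVB wildtype mice (9 animals), all killed at 23 weeks of age. All 16 animals had eaten chow with 4% fat up to 11 weeks of age and chow with 6% fat from then on, so both genotypes shared the same diet change. The Lactb protein resembles bacterial serine proteases and sits in mitochondria. Which promoter drives the transgene is not stated by the labels, and the level of Lactb was not analysed here because 0 probes could be named for it. Each animal gave 1 bead array of total liver RNA, whose values are background-subtracted intensities on a linear scale. The number of arrays, not reads, limits the precision. The labels call these separate mice, and some titles share a number whose meaning the labels do not give. The p-values treat the animals as independent.

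Phase I enzymes, above all the cytochrome P450s of the endoplasmic reticulum, add or expose a polar group on drugs, steroids, fatty acids and other lipophilic compounds. Carboxylesterases cleave esters and amides, flavin monooxygenases oxidise nitrogen and sulphur, and the dehydrogenases oxidise alcohols and aldehydes. Phase II enzymes then attach a large polar group, with glucuronosyltransferases adding glucuronic acid and sulfotransferases adding sulphate. In liver the P450s of the 2B, 2C and 3A subfamilies are known targets of the nuclear receptors CAR and PXR, and many mouse P450s are made at unlike levels in the male and the female liver.

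The arrays detected 9907 to 11564 probes each, and pairs of arrays correlated at 0.944 to 0.992 across tested probes. A total of 6 arrays stood apart from the rest: transgenic replicates 1 and 2 and wildtype replicates 1, 2, 8 and 9. On the first principal component over all tested probes other than the members, which carried 57.1% of their variance, these 6 lay at -30.9 to -25.8 and the other 10 at -2.60 to 25.6. The 6 arrays therefore include animals of both genotypes. The summed intensity of the hepatocyte markers with a named probe (4 of 10: Apoa1, Ass1, Tdo2 and Serpina1a, all detected on 16 arrays) was 52766 to 62236 on the 6 arrays and 33631 to 47038 on the other 10. By genotype it was 37771 to 62236 in transgenic liver and 33631 to 58837 in wildtype liver, and all 4 stood well above noise in both genotypes. The macrophage markers (4 of 9 named) summed to 389.1 to 598.5 on the 6 arrays and 1543 to 9571 on the other 10. The high sums came mostly from Lyz2 and Gpnmb, whose highest intensities were 4566 and 4441, against 406.4 for Csf1r and 274.9 for Cd68. The endothelial markers (3 of 6 named) summed to 4134 to 5866 and 4536 to 6152, and the stellate cell and fibroblast markers (6 of 7 named) to 5720 to 6724 and 6470 to 9906, on the 6 and the other 10. Of the cholangiocyte markers 2 of 5 had a probe, Krt19 was detected on 0 arrays, and the sums were 189.8 to 398.2 and 404.7 to 2612, almost wholly from Spp1. The T and B cell markers (2 of 5 named, Cd3e and Ighm) ran the other way, with 187.2 to 303.5 and 104.9 to 179.6 on the 6 and the other 10. The kidney marker Slc34a1 was detected on 0 arrays. In bulk liver, fewer cells of a type and less RNA per cell cannot be told apart, and the part of these cell types in any result below was not tested.

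Of the 58 members, 40 were tested: they stood above the noise of the array on at least 6 of 16 arrays, and 32 of them did so on all 16. The other 18 had intensities between -45.2 and 50.3 and were not well above background. Of these, 14 were detected on 0 arrays, among them Adh5, the glutathione-dependent formaldehyde dehydrogenase, Cyp11a1, the side-chain cleavage enzyme of steroid synthesis, Cyp27b1, which activates vitamin D, Fmo1, and the sulfotransferases Sult1b1 and Sult2a1. Thus the Sult and Adh families had no tested member, whereas all 8 members of the Ugt1 family and all 6 of the Cyp4 family did. A probe without signal does not show that its gene is silent. For Ces1c the brightest probe was detected on 16 arrays and a further probe on 0. The brightest probes of Cyp2c37 and Cyp2c50 were detected on 16 arrays and their further probes on 1 and 3. Whether the undetected members are expressed in these livers was not tested. No comparison of level between genes is drawn, since each probe has its own response.

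The comparison of genotypes asks whether carrying the Lactb transgene went with another level of these enzymes. No member passed the threshold: limma called 0 of 40 members at an adjusted p under 0.05, as it called 0 of all 11317 probes tested (0%), and the lowest adjusted p of a member was 0.932. An unadjusted p under 0.05 was reached by 2 members (5%), Cyp2c23 and Cyp2j9, beside 2.93% of all tested probes. Over the 10 arrays not set apart it was reached by 4 members (10%), beside 5.4% of all probes, with 0 members called. The mean was lower in transgenic liver for 25 of the 40 members (62.5%), beside 51.3% of all tested probes, and higher for 15 (37.5%), beside 48.7%. The median log2 difference, transgenic minus wildtype, was -0.04 over the members and -0.0041 over all probes. For 0 members did the ranges of the genotypes stay apart, beside 0.00884% of all probes. For 33 members (82.5%) the 95% interval of the difference lay within 2-fold either way, beside 97.4% of all probes, and for 25 (62.5%) it lay within 1.5-fold, beside 90.5%.

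**Figure D1:**
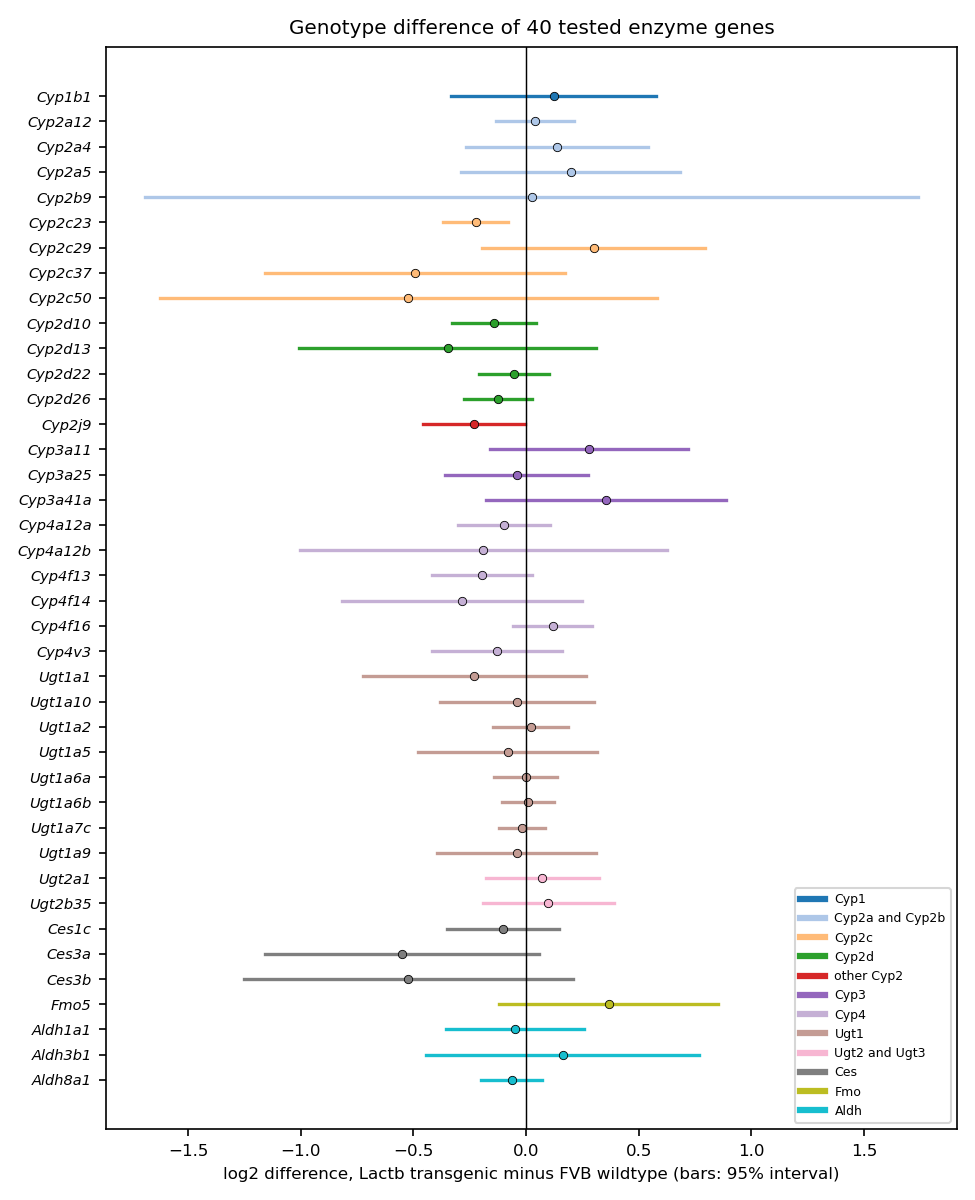
Log2 difference in level, Lactb transgenic minus FVB wildtype, for the 40 tested enzyme genes with 95% intervals from limma, ordered and coloured by family. The point estimates run from -0.55 (Ces3a) to 0.37 (Fmo5), the interval of Cyp2b9 is the widest and that of Ugt1a7c the narrowest among these 40, and 0 members passed the adjusted threshold.

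The Cyp2c subfamily, whose mouse members make epoxides and hydroxides of arachidonic acid and oxidise many drugs, had 4 tested members of 7, of which 3 had a lower and 1 a higher mean in transgenic liver. Cyp2c23, an arachidonic acid epoxygenase best known from kidney, had deposited intensities of 7830, 8312 and 11133 (lowest, median and highest) in transgenic liver and 8892, 10816 and 12045 in wildtype liver. The ranges overlapped. On the log2 scale after background correction and normalization its level in transgenic liver was 13.13 ± 0.12 (SD, n = 7) and in wildtype liver 13.36 ± 0.12 (SD, n = 9), a difference of -0.22 (SE 0.069, 0.856-fold, limma unadjusted p 0.00482, adjusted p 0.932). On that normalized scale the wildtype mean exceeded all 7 transgenic values, which does not hold for the deposited intensities, where transgenic replicate 1 lay higher. Leaving out the 6 arrays set apart, the difference of Cyp2c23 was -0.23 (limma adjusted p 0.884). Among animals that share a title number across the genotypes, transgenic minus wildtype was -0.17 for number 9, -0.37 for number 12 and -0.37 for number 13. These rest on transgenic replicate 2 against wildtype 3, transgenic 3, 4 and 5 against wildtype 8, and transgenic 6 against wildtype 9. Of these animals, transgenic replicate 2 and wildtype replicates 8 and 9 are among the 6 arrays set apart. Cyp2c23 had intensities of 10158 to 12045 on those 6 arrays and 7830 to 11219 on the other 10.

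Cyp2c37 and Cyp2c50, which both respond to CAR and lie close together on chromosome 19, varied far more between animals. Cyp2c37 had intensities of 1786, 3707 and 9890 (lowest, median and highest) in transgenic liver and 2633, 5420 and 10484 in wildtype liver. Its log2 level in transgenic liver was 11.99 ± 0.76 (SD, n = 7) and in wildtype liver 12.48 ± 0.64 (SD, n = 9), a difference of -0.49 (SE 0.317, limma adjusted p 0.932) that was smaller than the spread within either genotype. Cyp2c50 had intensities of 41.8, 222.3 and 1021 in transgenic liver and 88.3, 318 and 898.8 in wildtype liver. Its highest animal stood 12.6-fold above its lowest on the normalized scale, and 5.38-fold for Cyp2c37, while the genotypes overlapped for both. Its difference was -0.52 (SE 0.524), and with the first component as a covariate -0.16 remained for Cyp2c37 and 0.06 for Cyp2c50. Without transgenic replicate 7 the differences were -0.31 for Cyp2c37 and -0.25 for Cyp2c50, and without transgenic replicate 1 that of Cyp2c50 was -0.86. The same genes differed in opposite directions within title numbers: 0.41 and 1.55 for Cyp2c37 and Cyp2c50 in number 9, and -1.38 and -2.26 in number 12. The transgenic animal of number 9 is one of the 6 arrays set apart and the wildtype animal is not, whereas in numbers 12 and 13 only the wildtype animals are. Cyp2c29, another CAR-responsive P450, had 430.5, 681.6 and 1480 in transgenic liver and 302.5, 641.1 and 820.9 in wildtype liver, a difference of 0.30 (SE 0.235) with 5 of 7 transgenic animals above the wildtype mean. Thus Cyp2c29 had a higher mean in transgenic liver while Cyp2c37 and Cyp2c50 had lower ones.

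The promoters of Cyp2c37 and Cyp2c50 are shown because both genes were highest on the same 6 arrays. Each runs from 250 bases before to 50 bases after the start, from RefSeq (build GRCm38.p6), 5′ to 3′ on the + strand at chr19:39992174-39992473 and chr19:40089429-40089728, with capitals marking the match to CAAAGNNCA, a pattern of HNF4 sites.
Cyp2c37: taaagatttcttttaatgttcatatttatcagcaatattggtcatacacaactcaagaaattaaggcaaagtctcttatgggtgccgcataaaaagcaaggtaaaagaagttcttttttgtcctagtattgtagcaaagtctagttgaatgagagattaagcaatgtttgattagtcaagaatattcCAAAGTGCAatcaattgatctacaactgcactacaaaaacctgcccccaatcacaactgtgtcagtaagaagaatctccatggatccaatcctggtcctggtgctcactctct
Cyp2c50: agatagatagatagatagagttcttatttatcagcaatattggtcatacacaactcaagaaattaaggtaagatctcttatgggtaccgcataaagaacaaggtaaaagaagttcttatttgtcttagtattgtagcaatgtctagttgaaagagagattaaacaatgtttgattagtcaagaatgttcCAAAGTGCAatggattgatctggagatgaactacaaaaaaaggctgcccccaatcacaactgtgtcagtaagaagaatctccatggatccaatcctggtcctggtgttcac
In an alignment of these 2 windows, 264 of 305 columns were identical (86.6%), and the match lies at bases 188 and 190. Of the 40 tested members, 33 had a promoter in the table. CAAAGNNCA, searched on both strands, was found in 10 of these 33 (30.3%) and in 6.37% of all 27025 promoters of the same length. Among these 10, only Cyp2c37 and Cyp2c50 were highest on the 6 arrays, and Cyp2a12 was lowest on them after normalization. Close relatives with similar promoters were counted separately, here and for the patterns given below. A match is a description of letters, not of binding.

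Of the CAR and PXR responsive members some means were higher and some lower. Of 26 genes of the list 14 had a probe and 12 were tested, with 7 higher and 5 lower means in transgenic liver, 0 called by limma, and a median difference of 0.06. Cyp3a11, the main hepatic P450 of the mouse 3A subfamily and a PXR target, had intensities of 13693, 22368 and 24162 in transgenic liver and 9640, 18799 and 23565 in wildtype liver. The groups overlapped, and on the normalized log2 scale 6 of 7 transgenic animals lay above the wildtype mean (difference 0.28, SE 0.208, limma adjusted p 0.932). Without the 6 arrays set apart its difference was -0.0060, so the sign turned. Cyp3a41a, a P450 that predominates in female liver, stood above noise on 15 arrays with 57.4, 91.8 and 260.6 in transgenic and 21.4, 84.8 and 199.1 in wildtype liver. Its difference of 0.36 (SE 0.253) was 0.07 without those 6 arrays. Cyp3a25 differed by -0.04 (SE 0.150), and Cyp3a44 was detected on 0 arrays.

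In the Cyp2a and Cyp2b group all 4 members had a higher mean in transgenic liver, none past the threshold. Cyp2a5, the coumarin hydroxylase, had intensities of 5098, 8494 and 13548 in transgenic and 4616, 6903 and 13172 in wildtype liver. With the first component as a covariate all 4 differences were below 0, and without the 6 arrays set apart 2 were. Of Cyp2a5 the difference was 0.20 (SE 0.231), and a further probe gave 0.23. Its close relative Cyp2a4, a testosterone hydroxylase, differed by 0.14 (SE 0.192), and Cyp2a12, which hydroxylates bile acids in the mouse, by 0.04 (SE 0.082). Cyp2b9, a P450 that is higher in female than in male liver, had the widest spread of all 40 tested members, an SD within genotype of 1.81 log2 units. Its intensities were -1.30, 450.1 and 1361 in transgenic liver and -21.6, 379.4 and 1938 in wildtype liver. It was not above noise in transgenic replicate 2 and in wildtype replicates 2 and 8, which belong to the 6 arrays set apart, and it was detected in the other 13 animals. The difference was 0.02 (SE 0.815) with a 95% interval of -1.69 to 1.74.

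The Cyp2d subfamily, relatives of the human debrisoquine hydroxylase, had 4 tested members of 4, all with a lower mean in transgenic liver, or 3 of 4 with the first component as a covariate. Cyp2d10 had intensities of 11084, 12438 and 15206 in transgenic and 11071, 16142 and 17907 in wildtype liver. The ranges overlapped, and the lowest animals of the genotypes were nearly equal (log2 difference -0.14, SE 0.088, limma adjusted p 0.932). Cyp2d26 differed by -0.12 (SE 0.072), Cyp2d22 by -0.05 (SE 0.073) and Cyp2d13 by -0.35 (SE 0.312). Of the Cyp2j genes, which metabolise arachidonic acid, Cyp2j9 was the one tested. Its intensities were 144, 259.3 and 334.7 in transgenic and 183.7, 268.9 and 350.5 in wildtype liver, and the ranges overlapped. On the normalized log2 scale 6 of 7 transgenic animals lay below the wildtype mean, and the difference was -0.23 (SE 0.108, limma unadjusted p 0.0476, adjusted p 0.932), and within title numbers it was -0.95, -0.07 and 0.24 for numbers 9, 12 and 13.

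**Figure D2:**
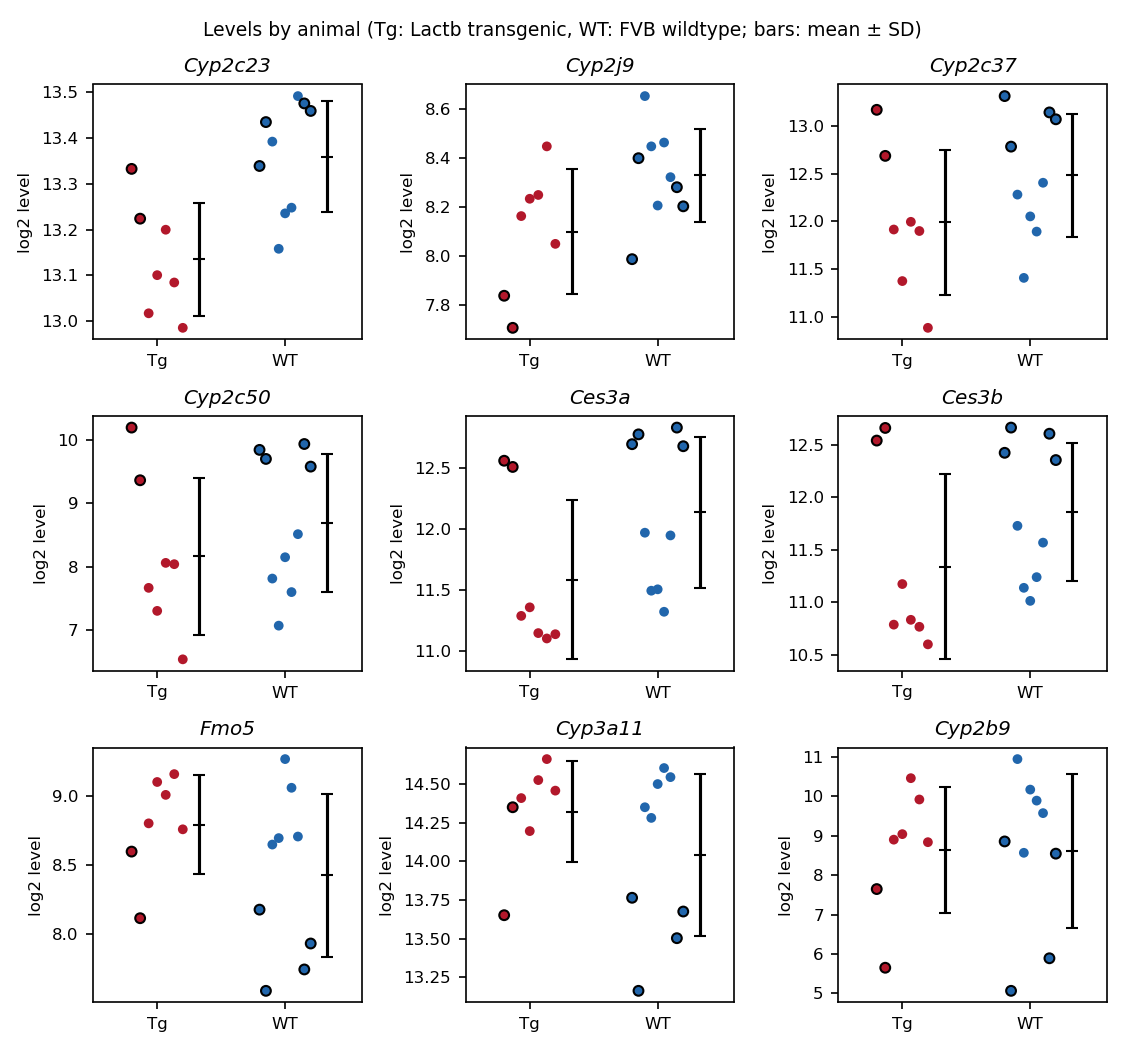
Log2 level of 9 enzyme genes in each animal, Lactb transgenic (Tg, 7 animals) left of FVB wildtype (WT, 9 animals), with mean ± SD beside the points and a black outline on the 6 arrays set apart. For Cyp2c37, Cyp2c50, Ces3a and Ces3b the outlined points are the highest of both genotypes, and for Fmo5 they are the lowest.

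The Cyp4 family, the omega-hydroxylases of fatty acids and eicosanoids, had 5 of 6 means lower in transgenic liver, with a family median of -0.16, 0 called, or 3 of 6 lower with the first component as a covariate. Cyp4f13 and Cyp4f14, of the subfamily that inactivates leukotrienes, differed by -0.19 (SE 0.105) and -0.28 (SE 0.254). Cyp4f14 had intensities of 2433, 3124 and 6911 in transgenic and 2794, 4800 and 6978 in wildtype liver, so the ranges overlapped. Cyp4v3 differed by -0.13 (SE 0.137), and Cyp4f16, detected on 14 arrays, by 0.12 (SE 0.083). The male-predominant pair Cyp4a12a and Cyp4a12b differed by -0.10 (SE 0.097) and -0.19 (SE 0.387). Cyp4a12b had intensities of 503.2, 966.7 and 2357 in transgenic and 568.2, 865 and 4311 in wildtype liver, an 8.04-fold range over the 16 animals. Its highest value, in wildtype replicate 7, lay on an array outside the 6 set apart, and without that animal the difference was 0.05. The 2 tested members of the list that is higher in male liver both had lower means in transgenic liver (median -0.14), and the 3 tested of the list that is higher in female liver had higher means (median 0.14), with Cyp2b9 below 0 at an offset of 50, and 2 of 3 below 0 with the first component as a covariate. With 0 members called in either list, these counts are a description.

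Carboxylesterases had the lowest family median, -0.52, over 3 tested members of 3. Ces3a, a liver carboxylesterase, had intensities of 2173, 2406 and 6315 in transgenic and 2592, 4007 and 7516 in wildtype liver. Its log2 level in transgenic liver was 11.59 ± 0.65 (SD, n = 7) and in wildtype liver 12.14 ± 0.62 (SD, n = 9) (difference -0.55, SE 0.288, limma unadjusted p 0.0733, adjusted p 0.932). Within each genotype the values fell on either side of a gap. Transgenic replicates 1 and 2 had 6315 and 5940 against at most 2659 in the other 5, and wildtype replicates 1, 2, 8 and 9 had 6760 to 7516 against at most 4007 in the other 5. Its neighbour Ces3b had 1506, 1753 and 6658 in transgenic and 1991, 3434 and 6767 in wildtype liver, with a difference of -0.52 (SE 0.346) and -0.51 from a further probe. Over the 10 arrays not set apart the differences were -0.44 for Ces3a and -0.51 for Ces3b, each with a limma adjusted p of 0.884. With the first component as a covariate they were -0.21 and -0.11. Ces1c, the carboxylesterase that liver secretes into plasma in the mouse, differed by -0.10 (SE 0.118).

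Fmo5, a flavin monooxygenase that acts as a Baeyer-Villiger oxidase, was the one tested member of its family and ran the other way. Its intensities were 204.9, 418.8 and 568.3 in transgenic and 127.1, 338 and 596.5 in wildtype liver, and the groups overlapped. On the normalized log2 scale 6 of 7 transgenic animals lay above the wildtype mean (difference 0.37, SE 0.231, limma adjusted p 0.932). Over the 10 arrays not set apart the difference was 0.09. The promoters of Ces3b, at chr8:105083505-105083804, and of Fmo5, at chr3:97628769-97629068, are shown as genes that lay at opposite ends on the 6 arrays (RefSeq, GRCm38.p6, + strand), with capitals marking a match to TATAAA on either strand.
Ces3b: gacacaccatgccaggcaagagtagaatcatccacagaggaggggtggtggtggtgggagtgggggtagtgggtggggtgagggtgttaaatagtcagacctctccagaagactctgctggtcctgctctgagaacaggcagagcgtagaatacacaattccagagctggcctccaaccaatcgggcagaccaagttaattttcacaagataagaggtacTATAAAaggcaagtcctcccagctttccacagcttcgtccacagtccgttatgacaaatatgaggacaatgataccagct
Fmo5: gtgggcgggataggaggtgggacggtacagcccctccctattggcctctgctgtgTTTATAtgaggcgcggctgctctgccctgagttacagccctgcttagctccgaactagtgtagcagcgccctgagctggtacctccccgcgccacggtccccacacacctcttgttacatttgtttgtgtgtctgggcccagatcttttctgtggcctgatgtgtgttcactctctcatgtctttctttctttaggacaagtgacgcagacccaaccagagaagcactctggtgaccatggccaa
The Ces3b match is on the printed strand at base 221, ahead of the start, and the Fmo5 match is on the opposite strand at base 56. TATAAA was found in 11 of 33 member promoters (33.3%) and in 14.2% of all promoters. Of the other patterns searched on both strands, AGGTCA (nuclear receptor site) was in 30.3% of member and 16.0% of all promoters, TTGCNNAA (C/EBP) in 30.3% and 10.8%, and TTCNNNGAA (STAT) in 9.09% and 8.47%. GCGTG, the AHR core, was in 18.2% of member and 32.5% of all promoters. TGACNNNGC (antioxidant response) was in 0 member promoters and 12.5% of all, and the palindromic HNF1 pattern in 0 member promoters and 0.0074% of all.

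Read by their brightest probes, the 2 members of smallest spread within genotype, Ugt1a7c and Ugt1a6b, are both glucuronosyltransferases of the Ugt1 locus. Genes of the Ugt1 locus join their own first exon to shared later exons, so a probe in the shared part reads several of them, and probe sequences were not used here. Of 8 tested Ugt1 members 2 had a higher and 6 a lower transgenic mean (median -0.03). This count turned to 5 higher and 3 lower without transgenic replicate 3, and likewise once title numbers entered the fit as fixed blocks. It was 4 and 4 without transgenic replicate 4 or 7 or wildtype replicate 7. Ugt1a7c had intensities of 10371.5, 10715 and 12073 in transgenic and 10222, 11407 and 12901 in wildtype liver. Its difference was -0.02 (SE 0.048), and its 95% interval of -0.12 to 0.08 on the log2 scale was the narrowest of the 40. A further tested probe of Ugt1a7c, detected on 7 arrays, differed by 0.13 (SE 0.080), with an SD within genotype of 0.15 against 0.05 for the brightest. Ugt1a6a and Ugt1a6b, which glucuronidate planar phenols, differed by -0.0016 (SE 0.067) and 0.0097 (SE 0.055). The further tested probes of Ugt1a6b differed by -0.07 and -0.13, with SDs within genotype of 0.40 and 0.36 against 0.08 for the brightest. Ugt1a1, the enzyme that conjugates bilirubin, varied more, with 197.2, 425.4 and 529.8 in transgenic and 214, 400.8 and 514.4 in wildtype liver (difference -0.23, SE 0.235). Its lowest values did not lie on the 6 arrays set apart. Ugt1a5 differed by -0.08 (SE 0.189), and a further probe of that gene by 0.06. In the Ugt2 and Ugt3 group, where 2 of 6 members were tested, Ugt2b35 differed by 0.10 (SE 0.138) and Ugt2a1, best known from the olfactory epithelium, by 0.07 (SE 0.119).

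Of the aldehyde dehydrogenases, Aldh1a1, which makes retinoic acid, differed by -0.05 (SE 0.146). Aldh8a1, an enzyme of the kynurenine pathway, differed by -0.06 (SE 0.064). Aldh3b1, which oxidises lipid aldehydes, was detected on 12 arrays and had 9.10, 138.5 and 161 in transgenic and 27.1, 75.1 and 155.2 in wildtype liver (difference 0.16, SE 0.288). Its 6 lowest animals were the 6 arrays set apart. Cyp1b1, an AHR target that is low in liver, was detected on 8 arrays and differed by 0.12 (SE 0.216). In the list of AHR responsive members 3 of 9 genes were tested, and the transgenic mean was above the wildtype mean for 1 and below it for 2. Of 10 genes of the retinoid list only Aldh1a1 was tested, and the bile acid and sterol, steroid hormone synthesis, vitamin D and mitochondrial Aldh lists had 0 tested members.

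Among partners and regulators of these enzymes, 8 of 35 listed genes were tested. The transgenic mean was above the wildtype mean for 4 and below it for 4, with 0 called and a median of -0.03. The smallest unadjusted p values belonged to Gstp1, a glutathione transferase (0.26, SE 0.156), Cebpa, a transcription factor of hepatocytes (-0.31, SE 0.218), Tpmt, a thiopurine methyltransferase (-0.13, SE 0.153), and Rxra, the nuclear receptor that pairs with CAR and PXR (-0.09, SE 0.121). All 4 had a limma adjusted p of 0.932.

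The members varied between animals of one genotype. The SD within genotype had a median of 0.33 log2 units over the 40 tested members and 0.20 over all tested probes. It exceeded 0.5 for 14 members (35%), beside 5.71% of all probes, and 1 for 2 members (5%), Cyp2b9 and Cyp2c50, beside 1.04%. Without the 6 arrays set apart the medians were 0.22 and 0.17, so the gap was narrower among the remaining 10 animals. Among probes with a mean log2 level over 12, the median was 0.19 for 17 members and 0.15 for 409 probes. For 6 members (15%) the highest animal stood at least 4-fold above the lowest, beside 3.33% of all probes.

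**Figure D3:**
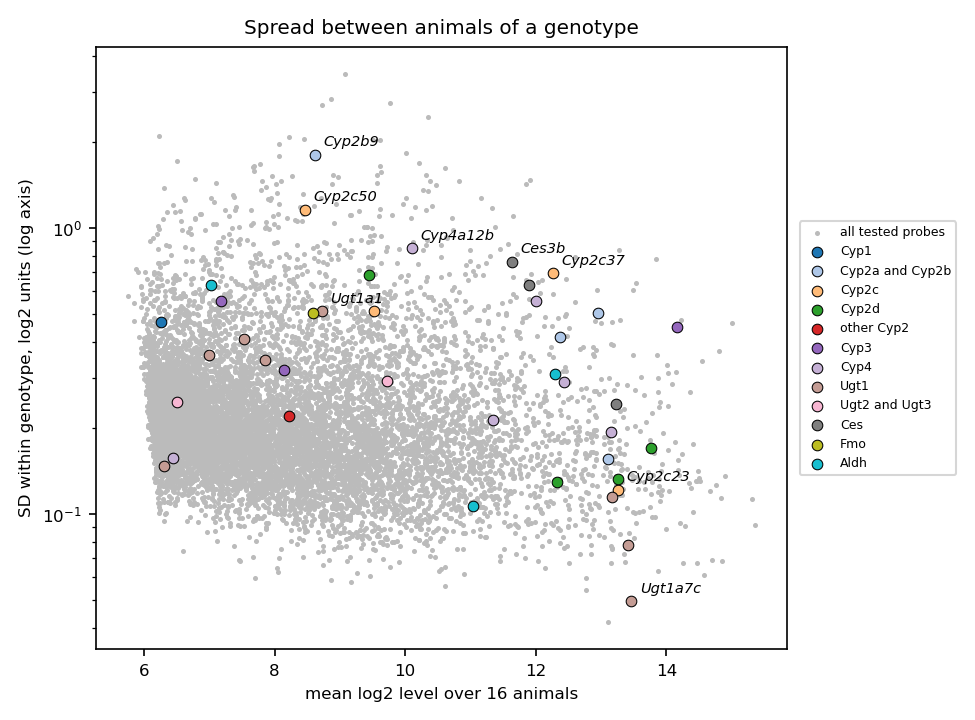
SD within genotype (log2 units, log axis) against the mean log2 level over 16 animals, for all tested probes in grey and the 40 enzyme genes coloured by family. Cyp2b9 and Cyp2c50 lie at 1.81 and 1.16, whereas Cyp2c23 lies at 0.12 and Ugt1a7c at 0.05.

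Several members were ordered alike across animals. For 9 of 40 members (22.5%) the 6 arrays set apart were the 6 highest, beside 4.61% of all tested probes: Cyp2c37, Cyp2c50, Cyp2d13, Cyp4f14, Cyp4v3, Ces1c, Ces3a, Ces3b and Ugt1a5. For 3 (7.5%), Aldh3b1, Cyp2a12 and Fmo5, the same arrays were the 6 lowest, beside 5.97% of all probes. For Cyp2a12 and Cyp2d13 this order came with normalization, since their deposited ranges on the 6 and the other 10 arrays overlap. These were 7944 to 8635 and 8016 to 10214 for Cyp2a12, and 930.4 to 1227 and 311.1 to 939.3 for Cyp2d13. The arrays were set apart by probes that are not members, and those probes make up nearly all of the background, so the shares are a description. Close relatives, such as Cyp2c37 and Cyp2c50 or Ces3a and Ces3b, were counted separately and may share a probe's signal. Cyp2c37 had deposited intensities of 6849 to 10484 on the 6 arrays and 1786 to 5420.5 on the other 10, and Cyp2c50 had 565 to 1021 and 41.8 to 318. Ces3a had 5940 to 7516 and 2173 to 4007, and Ces3b had 5377 to 6767 and 1506 to 3434. Fmo5 had 127.1 to 296.1 on the 6 arrays and 338 to 596.5 on the other 10, with no overlap. Cyp3a41a had 21.4 to 75.5 and 84.8 to 260.6 as deposited, and its ranges overlapped after quantile and after cyclic loess normalization. The hepatocyte, macrophage, cholangiocyte and T and B cell marker sums given above also differ between these arrays, and their part in the members' order was not tested.

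Not every variable member followed that order. Cyp4a12b, Cyp2c29, Ugt1a1 and Cyp3a25 had overlapping ranges on the 6 and the other 10 arrays, and so had Cyp2c23, Cyp2d26, Ugt1a6a and Ugt1a6b among the steady ones. Over the 40 members, 64.3% of the variance lay on their own first component and 14.5% on the second. The log2 levels were not scaled per gene, so the most variable members weigh most in these shares. Cyp2b9 and Cyp2c50 had SDs within genotype of 1.81 and 1.16, against a median of 0.33. The shares therefore do not show that all 40 members moved together. Transgenic replicate 7 was the lowest animal for 9 members and wildtype replicate 1 the highest for 7.

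**Figure D4:**
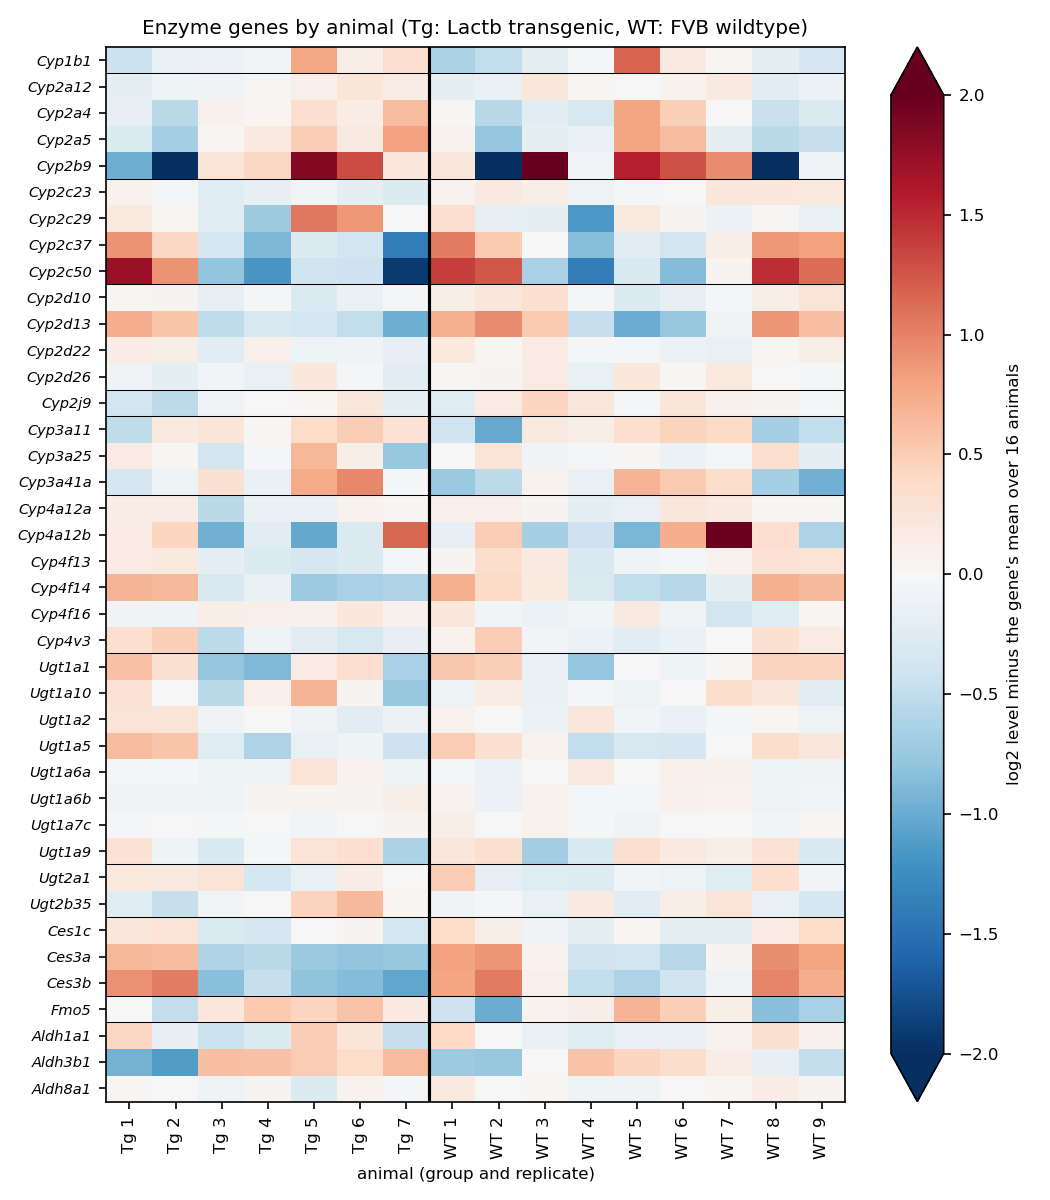
Log2 level of each tested enzyme gene (rows, grouped by family) minus its mean over 16 animals, in 7 Lactb transgenic (Tg, left of the line) and 9 FVB wildtype (WT) animals. Tg 1 and 2 and WT 1, 2, 8 and 9 are the highest for Cyp2c37, Cyp2c50, Ces3a and Ces3b and the lowest for Fmo5 and Aldh3b1, in both genotypes, though Tg 1 lies close to the mean for Fmo5.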

How the data were processed

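Total liver RNA of 16 mice was hybridised to Illumina bead arrays, 1 per animal. The deposited intensities are linear and, from the values, background-subtracted and brought to a common mean (30.0% to 33.8% of values lie below 0). BeadStudio 1.5.1.3 is named in the submitters' processing notes, and how values were scaled is not given there. A further deposited table was not used, since its columns name chip positions and no label ties them to animals. RefSeq gene numbers (GRCm38.p6) named 8884 of 9523 numbered probes. Intensities were background-corrected (normexp, offset 16), put on a log2 scale, which compresses folds of dim probes, and quantile normalized, which hides a shift common to most genes (limma 3.58.1, R 4.3.3). A probe was detected above 1.64 times its array's noise SD (root mean square of negative values) and tested if detected on at least 6 arrays. Genotypes were compared with lmFit and eBayes (two-sided, Benjamini-Hochberg over 11317 probes, threshold 0.05, no covariates). The fit was tested on simulated data. The members and lists were chosen with earlier results of these data known. Named were Cyp2c23, Cyp2c37 and Cyp2c50, and per family the 2 tested members of smallest p, the brightest and the most variable. Of the partners, the 4 of smallest p were named. Other members were named to complete a family, after their values were seen. The meaning of the title number is not given and it repeats within a genotype, so it was not used as a pairing (consensus correlation 0.17, or 0.38 within genotype). The SEs, intervals and p-values of the main fit take no account of either correlation. Alternatives varied background, normalization, filters, probe choice, blocks, weights, covariate and animals.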

Additional observations from a re-analysis of the deposited data

Results flagged for a closer look

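Among 60 sets of values (30 named members in each genotype), 2 held an animal far from the others of its genotype, where chance flags about 1 set in 20. Cyp1b1 had a log2 level of 7.41 in wildtype replicate 5, the highest of the 9 wildtype animals. The next highest was 6.44 and the lowest 5.62. Its deposited intensity there was 133.6, and this probe was above noise in 4 of 9 wildtype animals. Cyp4a12a had a log2 level of 12.61 in transgenic replicate 3, the lowest of the 7 transgenic animals. The next lowest was 13.02 and the highest 13.31. Its deposited intensity there was 5906.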

How the results depend on the processing

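Over 31 alternatives (15 settings and 16 that leave out 1 animal each) limma called 0 of the tested members at an adjusted p under 0.05, and the lowest adjusted p of a named member was 0.280 (Cyp2d13, title number as a fixed replicate block). The count of members with an unadjusted p under 0.05 was 2, beside 2.93% of all probes. It became 1 with values floored at the offset, quantile normalized (2.88% of all probes) or not normalized (2.46%), and without normalization between arrays (2.03%). It was also 1 with cyclic loess (2.79%) and with no filter on dim probes, where 58 members were tested (3.64%). It was 6 with array weights (10.6% of all probes) and 11 with the fixed replicate block (13.3% of all probes), a fit that rests on the title numbers found in both genotypes. Without the 6 arrays set apart, an alternative chosen after seeing the data, it was 4 (5.4% of all probes), namely Aldh3b1, Ces3a, Ces3b and Cyp2c23. When single animals were left out the count ran from 1 to 5, and the share of all probes moved as well. The count was 5 without transgenic replicate 1 (7.04% of all probes) or wildtype replicate 5 (5.15%), and 4 without transgenic replicate 2 (7.02%). It was 1 without transgenic replicate 3 or 7 or wildtype replicate 2, 3, 7 or 8 (2.01% to 3.21% of all probes). Cyp2c23 stayed lower in transgenic liver in all 31 (-0.31 to -0.17). The cause of these shifts was not tested.

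Of 30 named members 15 kept their sign throughout and 15 did not. With the first component as a covariate the differences turned to 0.055 (Cyp2c50), -0.056 (Cyp1b1), -0.022 (Cyp2a12), -0.021 (Cyp2a4), -0.012 (Cyp2a5), -0.00037 (Ugt2b35), 0.13 (Ugt1a5), 0.0046 (Cyp2d13), 0.031 (Aldh1a1), -0.69 (Cyp2b9), 0.0043 (Ces1c) and -0.17 (Aldh3b1). Without the 6 arrays set apart they turned to -0.021 (Cyp1b1), -0.012 (Cyp2a12), -0.0060 (Cyp3a11), 0.00145 (Ugt1a7c), 0.031 (Aldh1a1) and -0.40 (Cyp2b9). Cyp2b9 was -0.027 at an offset of 50, and Ugt1a7c 0.054 as the mean of its probes. Leaving out single animals, Aldh1a1 ran from -0.13 to 0.026, Cyp2b9 from -0.42 to 0.52, Ugt1a5 from -0.20 to 0.0125, Ugt2b35 from -0.000120 to 0.18, Cyp2c37 from -0.69 to -0.31, Cyp2c50 from -0.86 to -0.25 and Cyp4a12b from -0.40 to 0.048.

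The median SD within genotype of the members was 0.29 to 0.35 when single animals were left out. The count of members with the 6 arrays highest was 8 or 9, and with them lowest 3, under the normalizations tried, but without normalization between arrays Cyp2d13 left the highest and Cyp3a41a took the place of Cyp2a12 among the lowest. The meaning of the title number is not given, and it repeats within a genotype, so it was not used as a pairing. The number as a random replicate block left 2 members at an unadjusted p under 0.05, beside 4.06% of all probes, and a lowest limma adjusted p of 0.859. The slide block and the detection p-values were not run, since the table that holds them could not be tied to animals. Of 15 members with several probes, 7 had at least 2 tested, and 4 of these 7 agreed in sign. Folds of probes near the noise are compressed, and close relatives may share a probe's signal.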
